A study of Mus musculus with 6 samples.

Results

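The vascular endothelial growth factor (VEGF) ligands and their receptors were followed as 9 genes: the ligands Vegfa, Vegfb, Vegfc and Pgf, the receptor tyrosine kinases Kdr, Flt1 and Flt4, and the neuropilins Nrp1 and Nrp2. They were chosen by symbol, and all 9 were found among the 19349 symbols of each count table. The tables hold 6 libraries of non-parenchymal liver cells (endothelium, leukocytes, bile duct and mesenchymal cells, with most hepatocytes removed), profiled on the 10x Genomics Chromium system. The cells came from male C57BL/6J mice labelled as having nonalcoholic steatohepatitis (NASH). Mice of both groups received a high-fat diet for 24 weeks from 8 weeks of age, and in the last 8 weeks they were given either vehicle (3 libraries) or ginkgetin, a plant biflavone, at 10 mg/kg/day (3 libraries). No library from mice on a chow diet was analysed here, so every comparison lies between 2 groups on the same diet. Nothing in the labels ties a library to an animal, so p-values measure the spread between libraries, which may be technical.

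VEGF-A binds KDR (VEGFR2), the main signalling receptor of vascular endothelium, and FLT1 (VEGFR1), which binds VEGF-A tightly, signals weakly in endothelium and can act as a decoy. VEGF-B and placental growth factor (Pgf) bind FLT1, VEGF-C binds FLT4 (VEGFR3) and, after processing, KDR, and the neuropilins are co-receptors for VEGFs that also bind class 3 semaphorins. In the liver, VEGF made by neighbouring cells is known to maintain the fenestrated sinusoidal endothelium, and sinusoidal endothelial cells carry FLT4, which most blood endothelium of the adult lacks.

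The libraries held 33168 barcodes and 198230416 unique molecular identifiers (UMIs), between 13128697 and 61796882 per library. A total of 27544 cells were kept, with medians of 2483 to 8412 UMIs per cell. Replicate 3 of both groups carries other gene symbols than replicates 1 and 2 (945 symbols had UMIs in replicates 1 and 2 only, and 2252 in replicate 3 only), so the 2 sets are also compared within themselves. Libraries of 1 set shared 10 to 85 barcode sequences, and libraries of different sets shared 0 to 1. Cells were assigned to 13 classes, named after marker genes that include none of the 9, and the 9 genes took no part in the clustering. Clusters with 2010 cells, 2.86% to 10.7% of a library, stayed unnamed, and their cells count in totals over all kept cells and in no class. Levels are given as CPM, a gene's UMIs scaled to the total of a class in a library, always in the order vehicle 1, 2, 3 and ginkgetin 1, 2, 3, and they are compared between classes and groups for 1 gene at a time, because transcript length was not taken into account.

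Of the receptors, Kdr gave 68488 UMIs in the kept cells, Nrp1 43704, Flt1 21720, Flt4 17166 and Nrp2 13466. The ligands were sparser, with 2500 UMIs for Vegfb, 2196 for Vegfa, 2135 for Vegfc and 46 for Pgf. The promoters of the genes whose levels are described at length below are shown to give them a place in the genome, since ETS factors, which bind around a GGAA core, are regulators of endothelial genes. RefSeq promoter windows of GRCm38, from 250 bases before to 50 after the annotated start, were read 5′ to 3′ on the gene's strand, with GGAA and its reverse complement TTCC in capitals. The windows are those of Kdr (chr5:75978406-75978705, minus strand), Nrp1 (chr8:128358823-128359122, plus strand), Vegfc (chr8:54077282-54077581, plus strand) and the upstream of the annotated pair of Vegfa windows (chr17:46032328-46032627, minus strand).
Kdr: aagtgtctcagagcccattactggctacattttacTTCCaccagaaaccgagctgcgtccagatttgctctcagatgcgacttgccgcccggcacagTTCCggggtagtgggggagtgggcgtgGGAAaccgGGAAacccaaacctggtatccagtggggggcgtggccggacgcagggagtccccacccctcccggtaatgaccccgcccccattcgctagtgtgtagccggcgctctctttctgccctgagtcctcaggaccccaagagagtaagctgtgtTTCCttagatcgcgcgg
Nrp1: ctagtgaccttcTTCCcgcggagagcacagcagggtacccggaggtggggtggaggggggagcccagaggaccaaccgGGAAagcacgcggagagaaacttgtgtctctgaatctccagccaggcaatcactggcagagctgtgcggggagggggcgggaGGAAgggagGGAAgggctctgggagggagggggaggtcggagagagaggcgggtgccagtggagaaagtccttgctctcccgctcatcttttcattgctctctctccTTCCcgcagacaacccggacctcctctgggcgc
Vegfc: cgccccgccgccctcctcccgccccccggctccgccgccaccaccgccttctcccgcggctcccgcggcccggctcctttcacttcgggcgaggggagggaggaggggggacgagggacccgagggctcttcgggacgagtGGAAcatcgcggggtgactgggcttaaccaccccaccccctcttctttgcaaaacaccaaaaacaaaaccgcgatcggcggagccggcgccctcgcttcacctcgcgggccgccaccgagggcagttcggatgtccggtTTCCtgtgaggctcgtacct
Vegfa: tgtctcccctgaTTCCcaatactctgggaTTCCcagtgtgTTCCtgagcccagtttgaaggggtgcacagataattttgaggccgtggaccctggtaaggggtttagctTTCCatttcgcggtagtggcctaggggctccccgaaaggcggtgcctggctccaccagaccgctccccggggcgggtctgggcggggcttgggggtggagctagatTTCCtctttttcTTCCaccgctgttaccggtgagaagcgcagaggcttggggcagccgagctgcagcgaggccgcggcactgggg
The core, searched on both strands, occurred 5 times in the Kdr and the Nrp1 window, 2 times in that of Vegfc and 6 times in that of Vegfa. It was found in 96% of the 32851 promoter windows, so its presence sets none of them apart. The longer form CCGGAA, also searched on both strands, was found in 14.9% of windows and, among these 4, in that of Kdr. ACGTG, a form of the core of the hypoxia response element, was searched on both strands. It was found in 19.6% of windows and in none of these 4, but 1 time in the other annotated Vegfa window (start 46025114). Other forms of that core were not searched.

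Transcripts of all 5 receptors and co-receptors were highest in endothelial-like cells, a class of 7969 cells with Pecam1, Cdh5, Stab2 and Dnase1l3 among its markers. The median level over libraries was 1953 CPM for Kdr in endothelial-like cells against 107 CPM in the next class, fibroblast-like cells. Flt1 had a median of 613 CPM in endothelial-like and 38.1 CPM in stellate-like cells, and Flt4 375 CPM in endothelial-like and 16.4 CPM in hepatocyte-like cells. The endothelial-like class stood above the next class in each of the 5 libraries where both had 10 or more cells, for every receptor. The neuropilins were less restricted. Nrp1 had a median of 987 CPM in endothelial-like cells, 180 CPM in stellate-like, 110 CPM in macrophage-like and 103 CPM in plasmacytoid dendritic (pDC)-like cells, and Nrp2 had 333 CPM in endothelial-like, 80.5 CPM in fibroblast-like and 24.2 CPM in macrophage-like cells.

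The ligands had other sources. Vegfa was highest in cholangiocyte-like cells, which are bile duct epithelium, with a median of 133 CPM, above stellate-like cells (25.4 CPM) in 5 of 5 libraries. Stellate-like, endothelial-like and fibroblast-like cells followed at medians of 16.1 to 25.4 CPM, and neighbours in this order kept it in only 2 or 3 of 5 libraries. Vegfc was shared by endothelial-like cells (56.4 CPM) and stellate-like cells (55.8 CPM), with the former higher in 3 of 5 libraries, and fibroblast-like cells had 42.5 CPM. Vegfb was spread across stellate-like (38.1 CPM), fibroblast-like (37.0 CPM) and endothelial-like cells (31.9 CPM), and in no class was its median 0. Pgf had its highest CPM in fibroblast-like cells, at 0, 16.1 and 49.3 CPM in vehicle replicates 1, 2 and 3 and at 0 and 9.11 CPM in ginkgetin replicates 1 and 3, which together are 13 of its 46 UMIs. With 5 libraries an exact sign-flip permutation test cannot go below p 0.0625, and that value (adjusted p = 0.0938 over 9 genes) was reached for Kdr, Flt1, Flt4, Nrp1, Nrp2 and Vegfa. The order of the 2 leading classes was not resolved for Vegfc (two-sided exact p = 0.875), Vegfb (exact p = 0.75, 4 libraries) or Pgf (exact p = 0.25). With cells of 250 to 5000 UMIs, the range the study states, too few libraries held cholangiocyte-like cells to place them in the order, and Vegfa was then highest in endothelial-like cells.

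**Figure D1:**
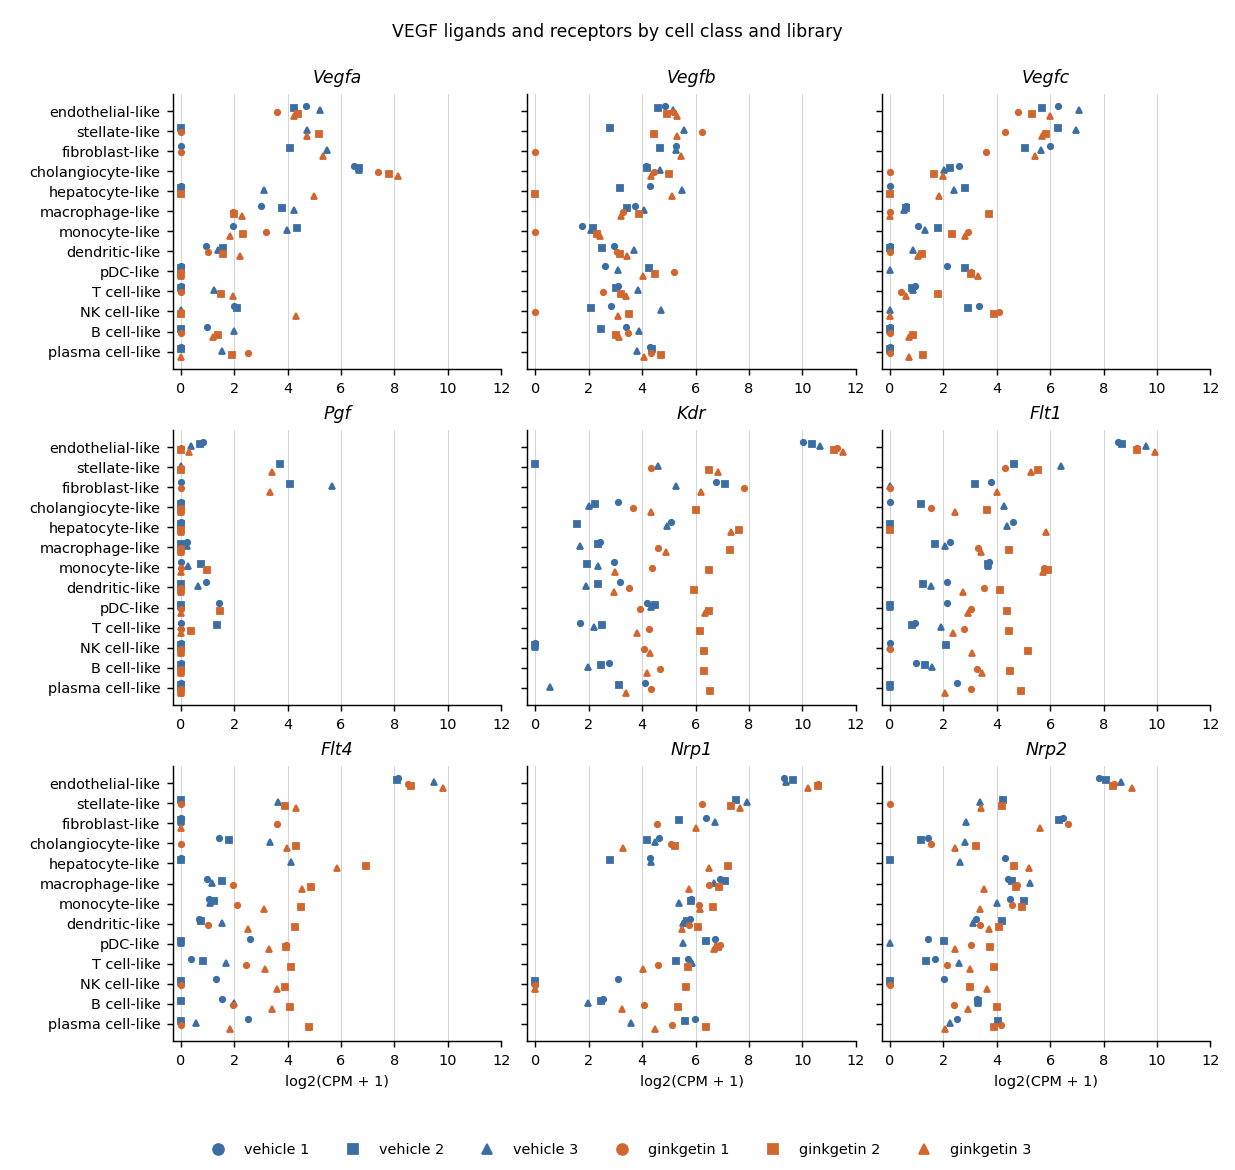
Level of each gene in 13 cell classes, as log2(CPM + 1), with 1 point per library (blue vehicle, orange ginkgetin, symbol by replicate). For Kdr, Flt1, Flt4, Nrp1 and Nrp2 every endothelial-like point lies to the right of the other classes' points from the same library, whereas Vegfa is furthest right in cholangiocyte-like cells and Vegfb is spread over many classes.

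Within the endothelium the receptors split by vessel type. Sub-clusters built without the 9 genes were named sinusoidal-like (6450 cells, with Stab2, Clec4g, Fcgr2b, Oit3, Dnase1l3 and Mrc1 detected as markers in every sub-cluster, and Lyve1 in all but 3 of the ginkgetin group) and vascular-like (1239 cells, with Vwf and Ly6a), and 280 cells, all from replicate 3 of either group, were pericentral-like (with Wnt2 among their markers). The cut is uneven between the sets, because sub-clusters led by Wnt2 or Kit in vehicle replicate 1 (482 cells) and ginkgetin replicates 1 and 2 (539 and 1081 cells) carried fewer than 3 pericentral markers and stayed in the sinusoidal-like cells. Pericentral-like cells also carried the sinusoidal markers, and every vascular-like sub-cluster carried 2 or more of them. Kdr was higher in the sinusoidal-like than in the vascular-like cells, at medians of 2289 and 503 CPM. Flt4 had 414 and 147 CPM, Nrp2 361 and 148 CPM, Nrp1 1068 and 484 CPM, and Vegfb 32.8 and 22.7 CPM, respectively. All 5 were higher in the sinusoidal-like cells in 6 of 6 libraries. Flt1 went slightly the other way, at 611 CPM in sinusoidal-like and 651 CPM in vascular-like cells, and the vascular-like level was the higher in 6 of 6 libraries, by 0.31 ± 0.29 (SD, n = 6) on the log2 scale in the sign-flip permutation test.

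The ligand Vegfc had the opposite order to its receptor Flt4. In vascular-like cells it stood at 178, 185 and 299.9 CPM in the vehicle and 295, 158 and 361 CPM in the ginkgetin libraries. In sinusoidal-like cells it stood at 33.7, 27.6 and 89.6 CPM and at 6.70, 8.40 and 30.9 CPM. The vascular-like level was higher in every library, by 3.27 ± 1.28 (SD, n = 6) on the log2(CPM + 1) scale in the permutation test. For Kdr, Flt1, Flt4, Nrp1, Nrp2, Vegfb and Vegfc the two-sided exact sign-flip test gave p = 0.03125, the smallest that 6 libraries allow (adjusted p = 0.0402 over 9 genes), while Vegfa (exact p = 0.875) and Pgf (exact p = 0.375) were not separated. The pericentral-like cells, with 1 library per group and hence no test, held Kdr at 2101 CPM in the vehicle and 3310 CPM in the ginkgetin library, and Flt4 at 837 and 851 CPM.

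The next question was how these levels differed between vehicle and ginkgetin within a class. A gene was called changed at a Benjamini-Hochberg adjusted p under 0.05 over all genes of the class and a fold over 2 in edgeR's quasi-likelihood test on summed counts. In endothelial-like cells none of the 8 genes tested was called, beside 0.691% of the 10419 genes tested. At an unadjusted p under 0.05 there were 1464 genes in the class, 4 of them Kdr, Nrp1, Vegfa and Vegfc. DESeq2 called 1 of the 8, Vegfc, where it called 2.68% of all tests over the 13 classes, and limma-voom called 0. Fold changes are scaled by TMM, which centres the median gene at -0.01 on the log2 scale, where plain CPM puts it at 0.13 in this class and at 0.45 in macrophage-like cells.

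Kdr stood at 1044, 1308 and 1599 CPM in the endothelial-like cells of the vehicle libraries and at 2541, 2307 and 2943 CPM in those of the ginkgetin libraries. The groups did not overlap, with means of 1317 ± 278 and 2597 ± 322 CPM (SD, n = 3 each). In edgeR the log2 fold change of 0.84 had an SE of 0.24 and an adjusted p of 0.197. Deviations from the group means correlated between libraries of the same replicate number (0.649, 0.623 and 0.900). Replicates 1 and 2 correlated as much across numbers (0.601 and 0.663), so the numbers set replicate 3 apart and do not pair replicates 1 and 2. With the replicate number as a block the change was 0.85 with an edgeR adjusted p of 0.0126. That is still a fold under 2 and so not called, where 4.23% of the genes were.

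Nrp1, the co-receptor of KDR for VEGF-A, had a similar pattern, at 639, 797 and 676 CPM in the vehicle and 1535, 1552 and 1177 CPM in the ginkgetin libraries. Again all 3 ginkgetin libraries lay above all 3 vehicle libraries, and edgeR gave 0.88 on the log2 scale, with SE 0.30 and adjusted p = 0.267 (0.86 with adjusted p = 0.0106 under the replicate block). Kdr and Nrp1 were the 2 of 8 genes whose ginkgetin libraries all lay above the vehicle libraries, which 11.6% of all genes tested did, and 0 of 8 lay below, which 6.34% did. Within replicates 1 and 2 the log2 ratio was 1.04 for Kdr and 1.10 for Nrp1, and within replicate 3 it was 0.88 and 0.80.

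The other receptors differed less. Flt1 had 375, 410 and 777 CPM in the vehicle and 617, 610 and 962 CPM in the ginkgetin libraries, and Flt4 had 281, 271 and 720 CPM and 359, 390 and 894 CPM. Both were highest in replicate 3 of each group and overlapped between the groups, with log2 fold changes of 0.36 (adjusted p = 0.611) and 0.23 (adjusted p = 0.878) in edgeR. Nrp2 had a log2 fold change of 0.27 (adjusted p = 0.662). Leaving out the ginkgetin replicate 3 library turned the direction of Flt4.

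**Figure D2:**
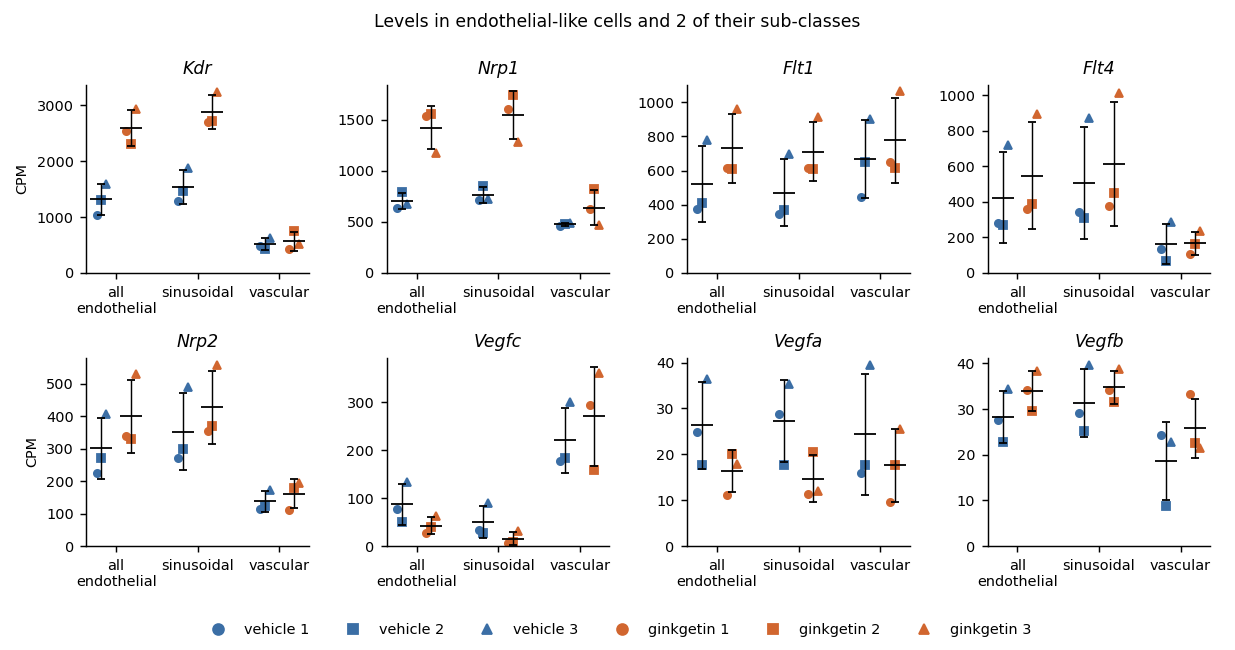
CPM of 8 genes in all endothelial-like cells and in their sinusoidal-like and vascular-like cells, 1 point per library with group mean and SD (n = 3). Kdr and Nrp1 separate the groups in all endothelial-like and in sinusoidal-like cells but overlap in vascular-like cells, and Vegfc is highest in vascular-like cells.

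In the sinusoidal-like cells the groups were also apart for Kdr and Nrp1. There Kdr stood at 1285, 1460 and 1881 CPM in the vehicle and 2697, 2711 and 3232 CPM in the ginkgetin libraries, and its log2 fold change was 0.74 (edgeR adjusted p = 0.238). Nrp1 stood at 716, 853 and 724 CPM and at 1603, 1744 and 1283 CPM (0.85, edgeR adjusted p = 0.281). These 2 of 8 genes were again above in all libraries, as were 13.5% of the genes of that sub-class, where 5.71% lay below and 0.571% were called by edgeR. In vascular-like cells Kdr stood at 483, 436 and 630 CPM against 423, 758 and 524 CPM, the groups overlapped for every member, and the log2 fold change of Kdr was 0.17. Nrp1 stood there at 461, 475 and 493 against 628, 818 and 472 CPM (0.45), with a log2 ratio of 0.63 within replicates 1 and 2 and -0.06 within replicate 3. Of the genes tested in vascular-like cells edgeR called 0%, with 347 at an unadjusted p under 0.05, and DESeq2 called 18 genes, none of the 9. Whether the change of Kdr or Nrp1 differed between the 2 sub-classes was not tested. With pericentral-like cells joined to the sinusoidal-like ones, a cut added after the data were seen, the log2 fold change was 0.73 for Kdr (adjusted p = 0.227) and 0.84 for Nrp1 (adjusted p = 0.278). Without the sub-clusters led by Wnt2 or Kit it was 0.70 for Kdr (adjusted p = 0.275) and 0.86 for Nrp1 (adjusted p = 0.284), and neither gene was called in either cut, also with the replicate block. Without the block edgeR called none of the 8 genes tested in the 2 cuts (4 had an unadjusted p under 0.05 in each), beside 0.699% and 0.517% of genes.

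The endothelial-like cells of the 2 groups lay mostly in different clusters. A cluster of 3292 cells led by Sepp1, Ehd3 and Pde2a, with Kdr and Nrp1 themselves among its leading genes, held 969 and 2289 cells of ginkgetin replicates 1 and 2, whereas another of 1568 cells led by Fabp4, Lyve1 and Ctgf held 1041 and 456 cells of vehicle replicates 1 and 2. In replicate 3, a cluster of 1006 cells led by Selenop and Cavin2 held 991 ginkgetin cells, and another of 516 cells led by Cavin2 and Cebpd held 375 vehicle and 141 ginkgetin cells. The summed level of Stab2, Clec4g, Dnase1l3 and Oit3 was 4147, 4717 and 4301 CPM in the endothelial-like cells of the vehicle and 6334, 6277 and 7686 CPM in those of the ginkgetin libraries. Per UMI of these 4 genes, Kdr stood at 0.252, 0.277 and 0.372 against 0.401, 0.368 and 0.383 UMIs and Nrp1 at 0.154, 0.169 and 0.157 against 0.242, 0.247 and 0.153 UMIs. On that measure the groups overlapped for both genes. The 4 genes did not share the difference equally, with log2 fold changes of 0.69 for Stab2, 0.82 for Dnase1l3, 0.30 for Oit3 and 0.04 for Clec4g, and the pan-endothelial genes Pecam1 and Cdh5 had -0.35 and 0.03, none of them called.

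Shares of cells gave the same order at equal depth. After each cell was thinned to 1000 UMIs, a Kdr UMI was found in 60.2%, 71.3% and 73.5% of endothelial-like cells in the vehicle and 86.4%, 83.9% and 85.9% in the ginkgetin libraries. Nrp1 was found in 48.4%, 55.4% and 46.8% against 77.3%, 77.1% and 67.9%. In B cell-like cells, which should lack Kdr, the share was 0.645%, 0.379% and 0% against 2.22%, 7.14% and 2.65%. Median depths before thinning were 2914 and 2637 UMIs in endothelial-like and 2772 and 2054 UMIs in B cell-like cells, in that group order, and 7 vehicle and 10 ginkgetin endothelial-like cells were too shallow to be thinned. Kdr, Nrp1, Vegfb and Vegfc did not overlap between the groups on this measure (two-sided exact permutation p = 0.1 each, the smallest that 3 libraries against 3 allow), beside 12.1% of all genes above and 5.5% below after a thinning of every gene. Vegfb did overlap in that second thinning, at 3.06%, 2.93% and 4.25% against 3.69%, 3.03% and 3.46%, so its order rests on which UMIs were drawn. Without thinning Kdr and Nrp1 lay above, as did 0.758% of genes, and Pgf below from 6 cells, as did 2.03%.

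Vegfc was lower in ginkgetin than in vehicle endothelium within each replicate number. It stood at 77.1, 50.9 and 135 CPM in the endothelial-like cells of the vehicle libraries and at 26.6, 39.4 and 62.0 CPM in those of the ginkgetin libraries. The groups overlapped, since ginkgetin replicate 3 lay above vehicle replicate 2, although each ginkgetin library lay below the vehicle library of its number. The log2 fold change was -1.17 (SE 0.33, edgeR adjusted p = 0.190), and with the replicate block Vegfc was called lower, at -1.16 with an adjusted p of 0.0138. A Vegfc UMI was found after thinning in 5.97%, 5.12% and 12.5% of the vehicle and 1.33%, 3.36% and 4.88% of the ginkgetin cells.

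The lower value was seen in sinusoidal-like cells, where the log2 fold change was -1.89 (edgeR adjusted p = 0.237, and -1.95 with adjusted p = 0.00141 under the replicate block, which called 4.26% of genes there), against 0.29 in vascular-like cells, and whether the 2 sub-classes differed in this was not tested. It was -2.01 with the pericentral-like cells joined in and -1.53 without the sub-clusters led by Wnt2 or Kit (edgeR adjusted p = 0.141 and 0.2096). The block called Vegfc in both cuts, beside 4.62% and 4.63% of genes, and in the second cut it also called Vegfa lower (-1.34, adjusted p = 0.0204). The share of vascular-like cells, which hold the most Vegfc, varied between libraries without separating the groups, at 26.7%, 9.87% and 24.3% of endothelial-like cells in the vehicle and 4.94%, 17.3% and 9.68% in the ginkgetin libraries. Vegfa in endothelial-like cells stood at 24.9, 17.6 and 36.4 against 11.2, 19.98 and 17.9 CPM (-0.81, edgeR adjusted p = 0.255) and Vegfb at 27.6, 22.8 and 34.3 against 34.1, 29.6 and 38.3 CPM (0.13). Neither separated the groups.

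Genes that endothelium is known to induce on VEGF signalling were read from a list of 13 (among them Esm1, Apln, Angpt2, Dll4, Igfbp3 and Hey1), of which 12 were tested in endothelial-like cells. All 12 had negative fold changes, with a median of -0.54 beside -0.01 for all genes of the class. The list was chosen with earlier results of these data known, so its common direction is a description and not a test. Angpt2, an antagonist of the TIE2 receptor made by endothelial cells, was the 1 that was called, where edgeR called 0.691% of all genes of the class. It fell from 51.7, 57.4 and 95.9 CPM in the vehicle to 26.6, 27.9 and 31.9 CPM in the ginkgetin libraries, a log2 fold change of -1.36 with SE 0.18 and an edgeR adjusted p of 0.0480. With the replicate block 5 of the 12 were called lower and 0 higher, beside 4.23% of all genes of the class, namely Angpt2, Esm1, Igfbp3, Apln and Hey1, of which the last 4 are named after their values were seen.

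Esm1, the proteoglycan endocan of endothelial tip cells, had the highest levels of these. It stood at 178, 195 and 572 CPM in the vehicle and 42.3, 58.7 and 38.8 CPM in the ginkgetin libraries, groups that did not overlap (log2 fold change -2.79, edgeR adjusted p = 0.0647, and -2.72 with adjusted p = 0.00853 under the block). Apln, the ligand of the apelin receptor, stood at 6.03, 3.92 and 7.47 against 0, 0.555 and 0.689 CPM. The common direction rested in part on replicate 3: without vehicle replicate 3, 8 of the 12 were negative, and in replicates 1 and 2 alone 7 were negative, 4 of them called.

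Of the other pathway lists, 3 of 5 ligand relatives and Tie genes, 6 of 12 neuropilin partners, all 14 receptor modulators, 31 of 32 signal effectors and 10 of 11 genes of the hypoxia-inducible factor (HIF) system were tested in endothelial-like cells. Over all 86 genes, 75 were tested, 0 were called higher and 2 lower, beside 0.691% of all genes of the class called in either direction, and the median log2 fold change was 0.06. The second called gene was Itgb3, the integrin subunit β3, which fell from 40.7, 55.5 and 69.0 CPM to 22.6, 21.8 and 21.9 CPM (log2 fold change -1.44, edgeR adjusted p = 0.0480). Neither Angpt2 nor Itgb3 was called once any single library was left out. Under the replicate block, with 4.23% of all genes called, 10 were called, 2 of them higher. Sema3d, a class 3 semaphorin that binds neuropilins, was 1 of those, at 6.28, 7.18 and 2.69 against 20.7, 21.8 and 17.8 CPM, and the small heat shock protein gene Hspb1, a target of p38 signalling, was among the lower ones, at 446, 307 and 209 against 124, 58.9 and 51.8 CPM. The glucose transporter gene Slc2a1, a HIF target, stood at 11.05, 5.22 and 17.0 against 1.97, 2.66 and 2.30 CPM. Without the block these 3 had adjusted p of 0.166, 0.158 and 0.0682 in edgeR. Plxna1, Mapk14 and Hif1an had log2 fold changes of 0.50, 0.59 and 0.71, none of them called.

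Among the ligands, the class with the most Vegfa held more of it in the ginkgetin group. In cholangiocyte-like cells (558 cells) Vegfa stood at 88.8, 101 and 102 CPM in the vehicle libraries, from 107, 82 and 67 UMIs. In the ginkgetin libraries it stood at 164, 223 and 281 CPM, from 86, 213 and 191 UMIs. No ginkgetin library overlapped the vehicle range, and the means were 97.3 ± 7.46 and 223 ± 58.5 CPM (SD, n = 3 each). Of 3 members tested in this class Vegfa alone lay above in all libraries, beside 8.29% of genes above and 11.8% below.

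The log2 fold change of Vegfa in cholangiocyte-like cells was 1.20 (SE 0.23, edgeR adjusted p = 0.0948), so it was not called, beside 0.176% of the 7947 genes of the class. With the replicate block it was called, at 1.18 with an adjusted p of 0.00243, beside 2.45% of genes. The summed UMIs gave a ratio of 2.37 (95% interval 2.03 to 2.77, exact and covering counting error only), and the log2 ratio was 1.02 within replicates 1 and 2 and 1.45 within replicate 3. After thinning, a Vegfa UMI was found in 5.60%, 6.54% and 13.8% of vehicle and 14.5%, 21.3% and 16.1% of ginkgetin cells of the class. In B cell-like cells the share was 0.323%, 0% and 0.755% against 0%, 0.0915% and 0%, and median depths before thinning were 8034.5 and 6345 UMIs in cholangiocyte-like and 2772 and 2054 UMIs in B cell-like cells. The summed level of the class's 6 markers was 3976 to 5006 CPM in the vehicle and 3688 to 4067 CPM in the ginkgetin libraries, and their log2 fold changes were -0.86 for Krt19, -0.58 for Krt7, -0.56 for Epcam, -0.13 for Cldn7, 0.23 for Sox9 and 0.27 for Tstd1, none of them called.

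In macrophage-like cells Vegfa was called lower. It stood at 7.11, 12.8 and 18.1 CPM in the vehicle libraries, from 86, 75 and 329 UMIs, and at 2.91, 3.02 and 3.86 CPM in the ginkgetin libraries, from 1, 2 and 8 UMIs. The groups did not overlap, and the log2 fold change was -2.39 (SE 0.45, edgeR adjusted p = 0.0212). Over the group the summed UMIs gave a ratio of 0.263 (95% interval 0.131 to 0.475, counting error only). The call was kept without vehicle replicate 3 and lost without any other single library, with the fold change between -2.65 and -2.08 throughout. It was also lost with limma-voom, where Vegfa in macrophage-like cells had -2.07 and an adjusted p of 0.0783.

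Kdr and Flt4 were the other 2 genes called in macrophage-like cells, both higher with ginkgetin. Kdr stood at 4.38, 4.10 and 2.15 CPM in the vehicle and 23.3, 155 and 28.4 CPM in the ginkgetin libraries, and edgeR gave 3.84 on the log2 scale with SE 0.81 and adjusted p = 0.0281. Flt4 stood at 0.992, 1.88 and 1.27 against 2.91, 28.7 and 22.2 CPM, from 12, 11, 23, 1, 19 and 46 UMIs (3.32, SE 0.60, edgeR adjusted p = 0.0193). Only the ginkgetin libraries reached the level at which the filter on genes admits Flt4. It was thus tested only through the group where it was higher. Thus 3 of the 7 genes tested in this class were called, where 10.4% of its 10148 genes were. On CPM, Kdr, Flt1 and Flt4 lay above in all libraries, as did 32.9% of genes, and Vegfa below, as did 7.85%. Leaving out single libraries, the Kdr call was kept only without vehicle replicate 3 (3.52) and lost in the other cases (2.35 to 4.27), and the Flt4 call was kept only without vehicle replicate 3 (3.31) or ginkgetin replicate 1 (3.63). With cells of 250 to 5000 UMIs none of the 3 remained called, since Kdr had an adjusted p of 0.0579 and Vegfa and Flt4 were too low to be tested.

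The make-up of the macrophage-like cells by cluster also differed between the groups. Clusters with Ms4a7, Trem2 and Gpnmb among their leading genes, known from lipid-associated macrophages, held 562, 335 and 2 cells of the vehicle and 15, 38 and 1 of the ginkgetin libraries in 1 case, and 704 vehicle and 35 ginkgetin cells, all of replicate 3, in the other. A cluster of 507 cells led by Marco, C6 and Cd163, which resident Kupffer cells carry, held 498 cells of ginkgetin replicate 3 and 9 of vehicle replicate 3, and another of 379 cells led by Mmp12 and Clec4f held 373 cells of vehicle replicate 3. The cluster of 1329 cells led by Fabp7, Folr2 and Vsig4 held 642, 376 and 7 against 89, 204 and 11 cells. Among the class's markers, Cd68 was called lower (-1.86, edgeR adjusted p = 0.0120), as was C1qb (-1.42, adjusted p = 0.0295). The other 6 were not called, at -0.88 for C1qc, -0.52 for C1qa, -0.30 for Cd5l, -0.02 for Adgre1, 0.52 for Clec4f and 0.62 for Vsig4, and the summed level of all 8 was 22918 to 25045 against 19124 to 25147 CPM. The part of this make-up in the values of Vegfa, Kdr and Flt4 was not tested.

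Sinusoidal endothelial transcripts were also higher in these cells. The summed level of Stab2, Clec4g, Dnase1l3 and Oit3, which mark sinusoidal endothelium, was 80.2, 69.8 and 60.1 CPM in macrophage-like cells of the vehicle and 303, 554 and 290 CPM in those of the ginkgetin libraries. Kdr was highest in ginkgetin replicate 2 in the other leukocyte classes as well, at 79.4 CPM in B cell-like and 70.5 CPM in T cell-like cells, where the sum was 305 and 261 CPM. Other endothelial genes from the lists were called higher in macrophage-like cells in the same fit, including the angiopoietin receptor Tek (3.57), Tie1 (3.84), Cdh5 (1.81) and the protease gene Adamts1 (3.64, all on the log2 scale). In all 15 of 64 list genes were called higher and 1 lower, Hspb1, where 10.4% of all genes of the class were called in either direction, and the median was 0.50 beside 0.02 for all genes. Per UMI of the 4 sinusoidal genes, Kdr in macrophage-like cells stood at 0.0546, 0.0587 and 0.0357 UMIs in the vehicle and 0.0769, 0.281 and 0.0982 UMIs in the ginkgetin libraries, where endothelial-like cells had 0.252 to 0.372 and 0.368 to 0.401 UMIs. Flt4 stood at 0.0124, 0.0269 and 0.0210 against 0.00962, 0.0518 and 0.0765 UMIs, where endothelial-like cells had 0.0574 to 0.167 and 0.0567 to 0.116 UMIs. Both ratios were below that of endothelial-like cells in all 6 libraries. The part of endothelial transcripts in the Kdr and Flt4 levels of macrophage-like cells was not tested. The class was also smaller and shallower with ginkgetin, with 104, 242 and 550 cells against 1204, 712 and 1095 and a median of 2214 against 10670 UMIs per cell.

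Nrp1 was also detected in macrophage-like cells. It stood at 120, 136 and 103 CPM in the vehicle and 90.2, 116 and 52.6 CPM in the ginkgetin libraries, and per UMI of the 4 sinusoidal genes it was 1.49 to 1.95 in the vehicle and 0.181 to 0.298 in the ginkgetin libraries, where endothelial-like cells had 0.154 to 0.169 and 0.153 to 0.247. The groups overlapped, and Nrp1 was not called without a block (log2 fold change -0.93, edgeR adjusted p = 0.136) and called lower with it (-1.02, adjusted p = 0.00730), where 15.6% of genes were called. Nrp2 stood at 20.2, 22.7 and 36.8 against 26.2, 25.7 and 10.6 CPM and overlapped as well. In edgeR Flt1 was called in this class with the block and not without it (1.61 with adjusted p = 0.0606 without it, 1.56 with adjusted p = 0.0307 with it). DESeq2, which called 2.68% of all tests over the 13 classes, called Flt1 here without a block.

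Monocyte-like cells held Flt1, which monocytes are known to carry as the receptor through which VEGF-A and Pgf attract them. The level was 12.2, 11.8 and 11.6 CPM in the vehicle libraries, from 68, 34 and 62 UMIs. In the ginkgetin libraries it was 54.2, 59.4 and 52.5 CPM, from 33, 60 and 61 UMIs. The libraries of a group lay within a few CPM of each other and the groups were far apart. The log2 fold change was 2.14 (SE 0.24, unadjusted p = 2.72e-05 in edgeR) with an adjusted p of 0.113 in a class where edgeR called 0% of its 8341 genes (1211 at an unadjusted p under 0.05, and 143 called by DESeq2). With the replicate block Flt1 was called, at 2.12 with an adjusted p of 0.00402, beside 3.25% of genes. The summed UMIs gave a ratio of 4.66 (95% interval 3.72 to 5.84, counting error only), and the log2 ratio was 2.15 within replicates 1 and 2 and 2.09 within replicate 3.

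The endothelial sum also differed between the groups in monocyte-like cells, at 29.7, 32.0 and 14.97 CPM against 86.997, 299 and 74.0 CPM. Per UMI of it, Flt1 stood at 0.370 to 0.775 in the vehicle and 0.199 to 0.709 in the ginkgetin libraries, which is above the 0.0869 to 0.181 of endothelial-like cells and the 0.033 to 0.105 of B cell-like cells in every library. After thinning, a Flt1 UMI was found in 1.39%, 0.83% and 1.03% of monocyte-like cells of the vehicle and 8.47%, 5.43% and 3.85% of those of the ginkgetin libraries, beside at most 2.30% in T cell-like and 1.92% in B cell-like cells of any library. Median depths were 6837 and 5404 UMIs in monocyte-like and 3448 and 3206 UMIs in T cell-like cells. Of the class's own markers, Ace and Cd300e, of patrolling monocytes, had log2 fold changes of 1.01 and 1.23. Those of classical monocytes had no common direction, at -1.70 for Chil3, -2.11 for Vcan, 0.08 for Ly6c2, 0.11 for F13a1 and 0.15 for Ccr2, and none of the 7 was called. Flt1, Kdr and Nrp1 lay above in all libraries, beside 8.97% of genes above and 9.38% below, and Nrp1 had 55.1, 55.4 and 40.6 against 68.9, 99.0 and 70.6 CPM (0.58, edgeR adjusted p = 0.414).

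**Figure D3:**
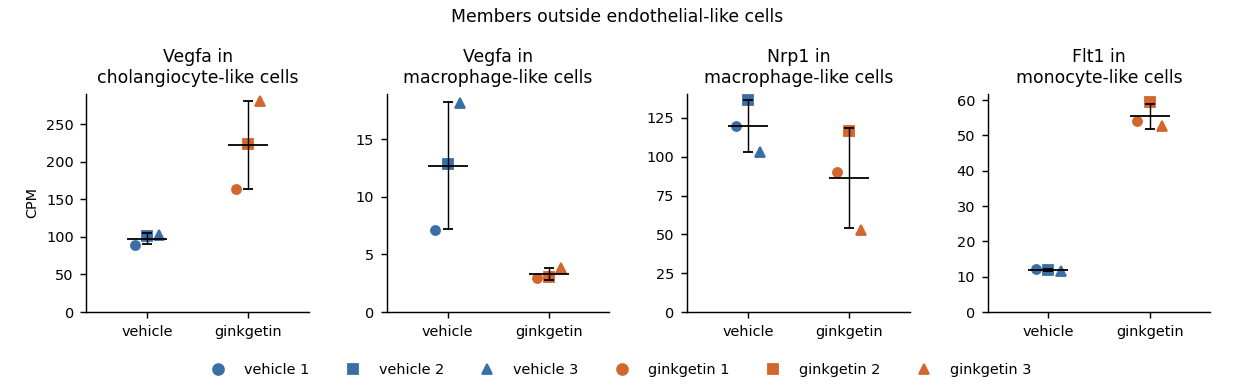
CPM of Vegfa in cholangiocyte-like and macrophage-like cells, Nrp1 in macrophage-like cells and Flt1 in monocyte-like cells, 1 point per library with group mean and SD (n = 3). The groups do not overlap for Vegfa in either class, in opposite directions, or for Flt1 in monocyte-like cells (11.6 to 12.2 against 52.5 to 59.4 CPM), and overlap for Nrp1 in macrophage-like cells.

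**Figure D4:**
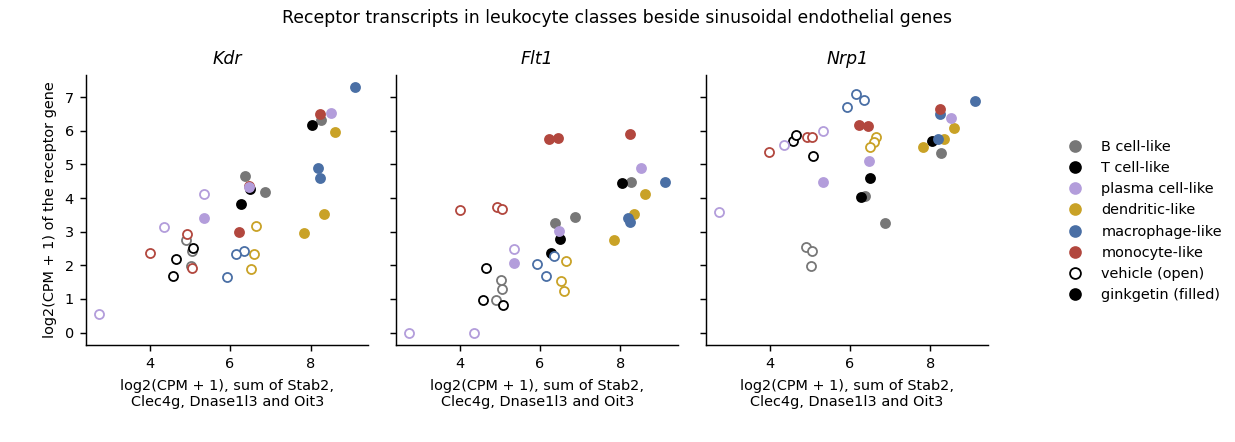
Levels of Kdr, Flt1 and Nrp1 in 6 leukocyte classes against the summed level of 4 sinusoidal endothelial genes in the same cells, both as log2(CPM + 1), with 1 point per library and class (open vehicle, filled ginkgetin). Kdr is highest in ginkgetin replicate 2 in every class, while Nrp1 in macrophage-like, monocyte-like and dendritic-like cells stays at 40.6 CPM or more in all libraries.

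Stellate-like cells, the vitamin A storing pericytes of the sinusoid, were few, and vehicle replicate 1 with 6 cells was left out. Vegfc stood at 77.9 and 123 CPM in vehicle replicates 2 and 3 and at 18.9, 55.8 and 50.8 CPM in the ginkgetin libraries, from 13, 53, 1, 16 and 16 UMIs. The log2 fold change of Vegfc was -1.15 with SE 0.45 and an edgeR adjusted p of 0.705, so it was not called, beside 0.0194% of the 5157 genes of the class called. Nrp1 stood at 180 and 241 against 75.5, 160.5 and 200.1 CPM and overlapped. None of the 46 list genes tested was called in edgeR (3 at an unadjusted p under 0.05, and 17 genes of the whole class called by DESeq2), and their median log2 fold change was 0.09. With the replicate block, which called 3.39% of genes, Ptprb, Itgb3 and Epas1 were called higher and Hspb1 lower among the list genes named for this class.

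Over the 13 classes, 51 pairs of gene and class could be tested and 3 were called, all in macrophage-like cells, beside 1.3% of the 87737 tests of any gene in any class. An unadjusted p under 0.05 was found for 24, and Pgf could be tested in no class. With the replicate block 13 pairs were called, beside 3.85% of all tests, and DESeq2 called 13 that are in part other pairs, beside 2.68%. Besides those given above, the pairs called with the block were Kdr in B cell-like, T cell-like, hepatocyte-like and stellate-like cells and Nrp1 in hepatocyte-like cells, all higher with ginkgetin, where the block called 1.35%, 0.462%, 4.29% and 3.39% of genes in that order of classes. Kdr in B cell-like and stellate-like cells and Nrp1 in hepatocyte-like cells passed the filter on genes only through ginkgetin libraries. Without the block, Kdr in stellate-like cells was 1.80 to 7.12 on the log2 scale with single libraries left out. In these classes the sum of the 4 sinusoidal genes was 28.9 to 32.4 against 81.9 to 305 CPM (B cell-like), 23.1 to 32.7 against 76.3 to 261 CPM (T cell-like), 11.9 to 98.5 against 528 to 1044 CPM (hepatocyte-like) and 95.8 to 99.7 against 18.9 to 362 CPM (stellate-like). In T cell-like cells Nrp1, which regulatory T cells are known to carry, stood at 51.1, 37.3 and 57.9 against 23.3, 51.1 and 15.5 CPM, and in pDC-like cells at 105, 82.3 and 45.7 against 121, 114 and 101 CPM, both overlapping.

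Summed over all kept cells of a library, the receptors separated the groups. Kdr rose from 120, 119 and 131 CPM to 678, 969 and 1044 CPM, which is 2.54 on the log2 scale with SE 0.20 and an edgeR adjusted p of 0.00279, and Nrp1 from 139, 142 and 118 CPM to 430, 659 and 434 CPM (1.65, adjusted p = 0.0147). Flt1 rose by 2.01 (adjusted p = 0.00585), Flt4 by 1.95 (adjusted p = 0.0262) and Nrp2 by 1.37 (adjusted p = 0.00790). The 5 receptors and none of the 3 ligands tested were called, beside 12.8% of 14240 genes. The log2 fold changes of Vegfa, Vegfb and Vegfc were -0.01, 0.25 and 0.38. When ginkgetin replicate 2 or either of vehicle replicates 1 and 2 was left out, 2 of the 5 receptors were called. With cells of 250 to 5000 UMIs 0 of the 5 were, and edgeR called no gene (1724 at an unadjusted p under 0.05, and the lowest adjusted p of the 5 was 0.415). Endothelial-like cells made up 20.6%, 16.4% and 9.84% of the vehicle and 36.5%, 48.6% and 31.2% of the ginkgetin libraries, while their median depth was 2914 UMIs per cell in the vehicle and 2637 in the ginkgetin group. Within these cells Kdr and Nrp1 had the lower log2 fold changes given above, 0.84 and 0.88, neither called. How much of the change over all cells came with the number of endothelial-like cells was not tested.

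The share of a gene's UMIs that lies in a class depends on how many cells of every class a library holds. It was higher in endothelial-like cells of all 3 ginkgetin libraries for 91.3% of all genes, and lower in macrophage-like cells for 96.5%, so the shares of single genes are given as a description. Nrp1 was shared between 2 classes in the vehicle libraries, with 49.96%, 47.5% and 44.9% of its UMIs in endothelial-like and 28.5%, 31.1% and 37.1% in macrophage-like cells. In the ginkgetin libraries 92.5%, 92.9% and 94.2% lay in endothelial-like and 0.613%, 0.512% and 1.001% in macrophage-like cells. Nrp2 had 65.2%, 56.8% and 60.7% of its UMIs in endothelial-like cells against 92.4%, 92.1% and 96.2%, and Vegfb 25.9%, 18.6% and 16.2% against 55.6%, 59.9% and 61.4%. For Kdr, Flt4 and Flt1 that share was high in both groups (92.8% to 97.9%, 91.6% to 96.9% and 89.2% to 97.3% over the 6 libraries).

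The share of Vegfa UMIs by class differed between the groups, as it did for most genes in macrophage-like and monocyte-like cells. Macrophage-like cells held 26.4%, 30.1% and 51.0% of its UMIs in the vehicle libraries and 0.775%, 0.466% and 1.91% in the ginkgetin libraries. Cholangiocyte-like cells held 32.8%, 32.9% and 10.4% against 66.7%, 49.7% and 45.7%, and endothelial-like cells 30.4%, 10.8% and 18.9% against 26.4%, 42.0% and 37.3%. Monocyte-like cells held 4.91%, 22.1% and 12.1% against 3.88%, 0.932% and 0.718%, and unnamed cells at most 3.68% in any library. The macrophage-like, cholangiocyte-like and monocyte-like shares did not overlap between the groups and the endothelial-like share did. Of the genes tested in each class, the macrophage-like share lay below for 96.5% and above for 0.0101%, the monocyte-like share below for 91.8% and above for 0.492%, and the cholangiocyte-like share above for 3.85% and below for 2.32%. Every share that did not overlap had a two-sided exact permutation p of 0.1, the smallest this design allows. In endothelial-like cells 4 genes did not overlap (Vegfb, Flt1, Nrp1 and Nrp2), all above, as were 91.3% of all genes, with 0.0986% below.

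**Figure D5:**
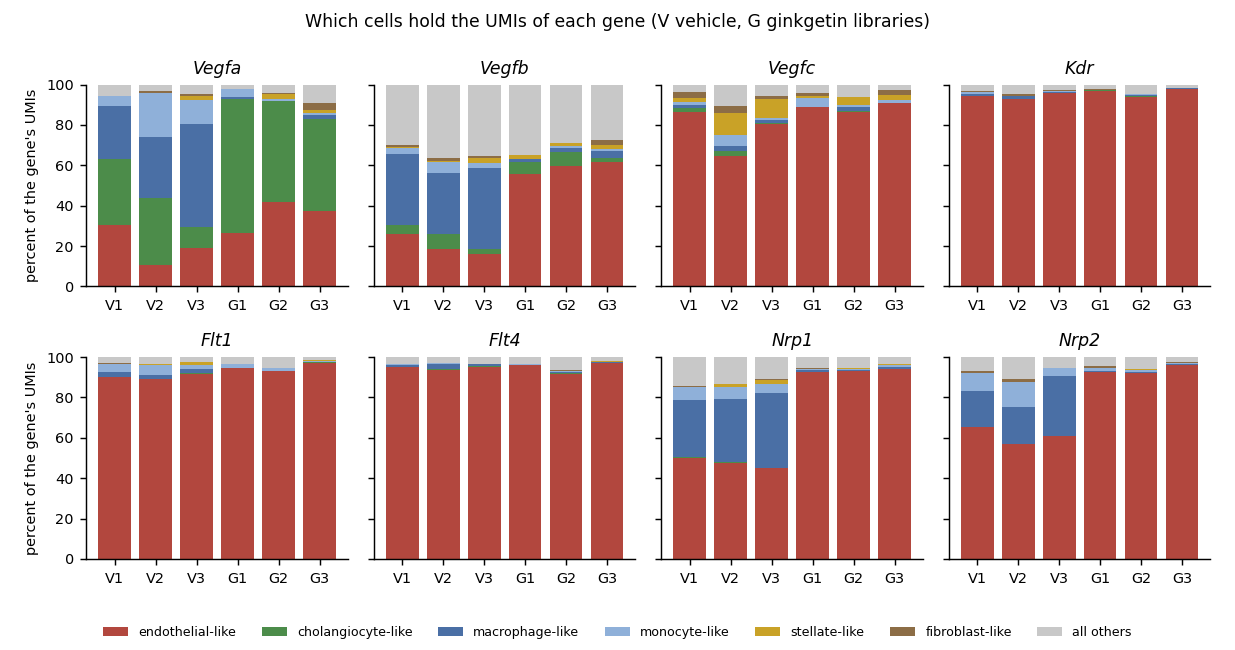
Share of each gene's UMIs in a library that lay in each cell class, for vehicle (V1 to V3) and ginkgetin (G1 to G3) libraries. The macrophage-like share of Vegfa, Vegfb, Nrp1 and Nrp2 is 17.9% to 51.0% in the vehicle and 0.459% to 3.12% in the ginkgetin libraries, while Kdr, Flt1 and Flt4 stay endothelial-like in all 6.

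Genes with the most similar pattern over the 13 class means were sought among 11752 genes, as a description with no test, since the classes share libraries. Those most like Kdr were Tek (Pearson r = 0.966), Aqp1 and Plxna2, and those most like Flt4 were Oit3 (0.992), Il13ra2 and Exoc3l2. Flt1 was nearest to Clec4g (0.935), Angpt2 and Lhfpl2, Nrp2 to Lepr (0.967), Pnp2 and Unc45b, and Nrp1 to Plxnd1 (0.888), Agpat5 and Ccnyl1. Among the ligands, Vegfa was nearest to Kifc3 (0.960), Lipt2 and Lpcat3, Vegfb to Rhobtb1 (0.885), Bcl2l2 and Erc1, Vegfc to Pde10a (0.931), Plscr4 and Gm10600, and Pgf to Adamtsl5 (0.985), Olfml2b and Srpx.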

How the data were processed

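The authors deposited 1 table of UMI counts per gene and cell barcode for each of 6 libraries, 3 of vehicle and 3 of ginkgetin, grouped here by their labels. The submitters' processing notes name the builds GRCm38 and mm10, and the aligner and annotation are not given in the sources used here. Cells with 250 to 5000 genes detected and under 5% mitochondrial UMIs were kept. The study states that range for UMIs, which is tried as an alternative. Counts were log-normalised and clustered in scanpy 1.11.5 (Python 3.11.15, 2000 variable genes, 30 principal components, 15 neighbours, resolution 1, and 0.5 for endothelial sub-clusters, seed 1). A cluster was named where 3 or more markers of a list were found in 25% of its cells at 2 times the level of the other cells. The 9 genes were kept out of the variable genes and markers, and the sub-class naming was set after the data were seen. Doublets were not removed. Scrublet, run with an expected rate of 6%, called 0.0286% to 0.192% of cells, and how many doublets remained is not known. Leaving out the 5% of each library with the highest scores was an alternative.

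Raw counts were summed per library and class (10 or more cells) and tested with edgeR 4.0.16 (R 4.3.3, filterByExpr, TMM, quasi-likelihood), with DESeq2 1.42.0 and limma 3.58.1 (voom) as alternatives. The edgeR step was checked on simulated data. Single values were tested by exact permutation in scipy 1.17.1 on log2(CPM + 1), with 10 CPM as another pseudocount. The gene Vegfd is listed as Figf in replicates 1 and 2, and both symbols were read as 1 gene. Deviations from the group means correlated between libraries of the same number (0.649, 0.623 and 0.900 in endothelial-like cells), so the replicate number was tried as a block. Replicates 1 and 2 also correlated across numbers (0.601 and 0.663), and replicate 3 correlated negatively with them (-0.792 to -0.735).

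The 9 genes, the pathway lists and the tests were chosen with earlier results of these data known. Besides the 9, the text names the called genes of each list in endothelial-like, macrophage-like and stellate-like cells, or else the 2 with the lowest p, and the 3 genes whose class pattern is most like each of the 9. Intervals cover counting error only.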

Additional observations from a re-analysis of the deposited data

Results flagged for a closer look

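The difference in Vegfa between cholangiocyte-like and macrophage-like cells was larger in the ginkgetin than in the vehicle libraries. On the log2(CPM + 1) scale, cholangiocyte-like minus macrophage-like cells gave a mean of 2.93 in the vehicle and 5.69 in the ginkgetin libraries, a difference of 2.76. It restates the levels of both classes, which moved in opposite directions without overlap of the groups, and the difference itself was not tested.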

How the results depend on the processing

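The 3 pairs of gene and class called became 13 with the replicate block, the block for the set of replicate 3, and DESeq2 (12 of the 13 shared by the blocks, which differ in Kdr in T cell-like or dendritic-like cells, and 10 shared by DESeq2 and either), 6 with no filter on genes, 5 with no filter on cells, 2 with limma-voom (Vegfa in macrophage-like cells lost), 0 with 250 to 5000 UMIs per cell, and 0 to 3 with single libraries left out. Of the list genes in endothelial-like cells, 2 were called, against 10 with either block, 9 with DESeq2, 8 in replicates 1 and 2 alone, 4 with no filter on cells, 1 with cells named one by one, and 0 with limma-voom, no filter on genes, the UMI range or any library left out. Shares of all genes called moved as well. Over the 13 classes they were 1.3% of tests in the main fits, 3.85% with either block and 2.68% with DESeq2. In endothelial-like cells they were 0.691% in the main fit and 4.23% with the replicate block. Shares under the other alternatives are not given here, so the other counts stand without that background. In all cells 5 genes were called, against 0 with the UMI range and 2 to 5 with libraries left out. For the share of UMIs in endothelial-like cells, 4 genes did not overlap, against 0 with the UMI range and 4 to 7 with libraries left out. The order of classes (6 genes) and of endothelial sub-classes (7 genes) kept its count in every alternative run, but with the UMI range the 6 held Vegfc in place of Vegfa. The replicate block changed no call of a single named gene other than those given above. The causes were not tested.

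Of 1090 values of 69 single-gene results under alternatives, 889 kept direction and side of the threshold, 46 crossed it upward, 131 downward, and 24 turned direction. In endothelial-like cells Flt4 was -0.12 to 0.66 with libraries left out (lowest without ginkgetin replicate 3), Vegfc 0.29 in vascular-like and Vegfb -0.015 in sinusoidal-like cells, a split chosen after seeing the data. Nrp1 in cholangiocyte-like cells was -0.032 to 0.79 (lowest without ginkgetin replicate 2). Nrp2 in monocyte-like cells was 0.0023 in replicates 1 and 2, -0.64 to 0.23 with libraries left out (0.16 without vehicle replicate 2) and 0.39 with no filter on cells. In stellate-like cells Flt1 was -1.18 to 0.50 and Nck2 -0.0031 to 1.43 with libraries left out, Nrp1 0.22 and Mcam -0.24 with cells named one by one, and Vegfb -0.44 by voom, -0.39 to 2.44 with libraries left out. In all cells Vegfc was -0.52 with the UMI range. The value of Vegfa in all cells was 0.000477 with the set block, 0.15 in replicates 1 and 2, 0.021 by voom, 0.050 with no filter on cells, and -0.27 to 0.11 with libraries left out. Some ligand values rest on few counts, since Pgf had 46 UMIs and Vegfa 11 UMIs in the macrophage-like cells of the ginkgetin group.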
